A study of Mus musculus with 2 samples.

Results

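The measurements described here are the levels of 9 interferon response genes (Ifit1, Ifit3, Ifit3b, Oasl2, Isg15, Irf7, Bst2, Rsad2 and Usp18) in single cells of mouse pancreatic islets. The genes were found by their symbols among the 31053 genes of the count tables, and all 9 were present in both. Islets came from wild type C57BL/6J female mice. The multipara mice began at 9 weeks of age, went through 3 consecutive pregnancies and gave their islets 3 weeks after the last delivery, and the virgin group was age-matched. Islets of both groups were kept in serum-containing medium, dissociated with trypsin and run as 1 droplet library per group, and the labels do not say how many mice each library pools, although the study used more than a single mouse per group. The study asked what repeated pregnancies do to islet β cells. With 1 library per group there is no replicate check, so differences between virgin and multipara are differences between these libraries. No test was made, and every interval given is an exact 95% interval that covers counting error only.

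Type I interferons are secreted by cells that sense foreign or misplaced nucleic acid. They bind a receptor found on most cells, and the receptor signals to the nucleus and switches on a broad set of antiviral genes through a short promoter element. In islets this programme is known from virus infection and from autoimmune diabetes, where β cells raise antigen presentation along with the antiviral genes. The 9 genes cover different jobs in it. Ifit1, Ifit3 and Ifit3b encode proteins that bind foreign RNA or assist in doing so, Oasl2 encodes an oligoadenylate synthetase-like protein, and Rsad2 encodes viperin, an enzyme that makes a chain-terminating nucleotide. Isg15 encodes a ubiquitin-like tag for other proteins. Bst2 encodes tetherin, which holds budding virus at the cell surface. Irf7 encodes a transcription factor that amplifies interferon production. Usp18 encodes the protease that removes the Isg15 tag and also restrains the receptor.

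In the GRCm38 annotation the 3 Ifit genes lie next to each other on the plus strand, Ifit3 at chr19:34583531-34588731, Ifit3b at chr19:34607970-34613401 and Ifit1 at chr19:34640871-34650009. Oasl2 lies at chr5:114896936-114912234 and Usp18 at chr6:121245906-121270917, both on the plus strand. The minus strand carries Isg15 at chr4:156199424-156200818, Irf7 at chr7:141262706-141266481, Bst2 at chr8:71534255-71537456 and Rsad2 at chr12:26442746-26456452. All 9 are protein coding. Irf7 overlaps Phrf1 on the opposite strand, and Usp18 overlaps the noncoding gene Gm44148 on the opposite strand. Because the strand setting of the counting is not given in the sources used here, Irf7 and Usp18 values may hold reads of those neighbours. Ifit3 and Ifit3b are near copies. Of the 451 stretches of 50 bases in the last 500 bases of Ifit3, 67 occur unchanged in the Ifit3b transcript, while 0 of 451 from the last 500 bases of Ifit3b occur in Ifit3, so the value of Ifit3 is the more uncertain of the pair.

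The promoter element is shown because interferon-activated factors are known to act through it. It was searched as GAAANNGAAA, where N is any base, or as TTTCNNTTTC, the same letters read on the other strand, with overlapping matches kept. In the 250 bases before the RefSeq start site, 6 of the 8 members with an entry held it (75%), against 821 of 27025 promoters (3.04%). Ifit1, Ifit3, Ifit3b and Bst2 held 2 matches, Isg15 held 3 and Rsad2 held 1. No match was found in these windows for Oasl2 and Irf7. Usp18 had no entry. The promoters of Ifit3, Ifit3b, Isg15 and Rsad2 follow, from RefSeq on GRCm38.p6, 5′ to 3′ on the strand of the gene, with the element in capitals.
Ifit3, chr19:34583279-34583528, plus strand: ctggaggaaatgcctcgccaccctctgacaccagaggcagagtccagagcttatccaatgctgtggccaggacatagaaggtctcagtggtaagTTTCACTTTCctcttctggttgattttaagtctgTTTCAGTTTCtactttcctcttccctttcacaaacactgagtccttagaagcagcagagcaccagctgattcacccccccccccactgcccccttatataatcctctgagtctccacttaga
Ifit3b, chr19:34607707-34607956, plus strand: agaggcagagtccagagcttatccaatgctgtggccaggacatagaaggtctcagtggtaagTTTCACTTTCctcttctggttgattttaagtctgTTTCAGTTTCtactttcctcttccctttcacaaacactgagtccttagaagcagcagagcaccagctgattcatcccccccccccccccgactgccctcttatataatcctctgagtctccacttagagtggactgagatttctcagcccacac
Isg15, chr4:156200819-156201068, minus strand: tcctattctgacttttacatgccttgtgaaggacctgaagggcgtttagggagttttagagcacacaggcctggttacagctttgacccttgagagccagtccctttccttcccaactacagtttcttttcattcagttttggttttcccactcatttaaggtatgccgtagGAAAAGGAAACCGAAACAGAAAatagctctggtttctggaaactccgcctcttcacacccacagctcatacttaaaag
Rsad2, chr12:26456453-26456702, minus strand: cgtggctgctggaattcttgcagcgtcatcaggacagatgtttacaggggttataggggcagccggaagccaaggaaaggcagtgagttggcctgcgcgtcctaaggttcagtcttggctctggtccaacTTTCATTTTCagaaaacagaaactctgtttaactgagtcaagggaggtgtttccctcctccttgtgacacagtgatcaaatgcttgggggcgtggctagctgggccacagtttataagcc
Ifit3 and Ifit3b carry the same pair of elements, ending 112 and 144 bases before their start sites. The 3 overlapping elements of Isg15 end 56 bases before its start, and the single element of Rsad2 ends 110 bases before.

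The virgin library held 5463 barcodes and 94853806 unique molecular identifiers (UMIs, 1 per captured RNA molecule), and the multipara library held 5075 barcodes and 82503776 UMIs. After filtering 4330 and 3330 cells remained, and 7 barcode sequences occurred in both libraries. Cells were assigned to classes by gates on hormone UMIs or on marker genes, rebuilt here from the counts, so the shares below are shares of these gates. The β cell gate held 1713 virgin and 1528 multipara cells at medians of 30063 and 32502 UMIs per cell. The gate for α cells, which make glucagon, held 972 and 572 cells, that for endothelial cells 263 and 225, and that for macrophages 65 and 95. Iapp, the amyloid peptide co-secreted with insulin, stood at 43584 and 43778 CPM (UMIs scaled to a total of 1000000) in the β cell gate, against 8813 and 8773 CPM in the other cells.

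The 9 genes were high in macrophages and endothelial cells and low in every endocrine class. Levels are given as CPM of the UMIs summed over a class, which corrects for depth but not for the UMIs that hormones take. In β cells with fewer than 3 members the median insulin share was 56.7% in virgin and 57.6% in multipara. That share lowers the CPM of every other gene. The order of the endocrine classes below holds for CPM over all UMIs, and levels without hormone UMIs were not computed. In β cells the 9 genes together reached 24.5 CPM (interval 23.2 to 25.9) in the virgin library, against 22.6 CPM (interval 21.3 to 24.03) in the multipara one. In macrophages they reached 1706 CPM (1572 to 1848) and 2121 CPM (2011 to 2236), and in endothelial cells, which line the islet capillaries, 1589 CPM (1524 to 1656) and 1384 CPM (1326 to 1443). The endocrine cells were all low: α cells stood at 36.0 and 34.7 CPM, PP cells at 43.5 and 26.6 CPM and δ cells at 62.3 and 69.4 CPM. B cells stood at 128 and 127 CPM, and pericytes, the contractile cells around capillaries, at 306 and 402 CPM. T cells stood at 309 and 207 CPM. The order of β cells, α cells, δ cells, B cells and the vascular and macrophage classes was the same in both libraries, while PP and α cells changed places, as did T cells and pericytes. Neighbours in this order were not always apart: the intervals of α and PP cells overlapped in both libraries, as did those of PP and β cells, of δ and B cells and of B and T cells in multipara. In virgin the intervals of PP and δ cells, of T cells and pericytes and of endothelial cells and macrophages overlapped too. Single cells set some of the small classes: 21 of the 33 Bst2 UMIs of virgin PP cells and 20 of the 43 of virgin δ cells lay in 1 cell each.

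**Figure D1:**
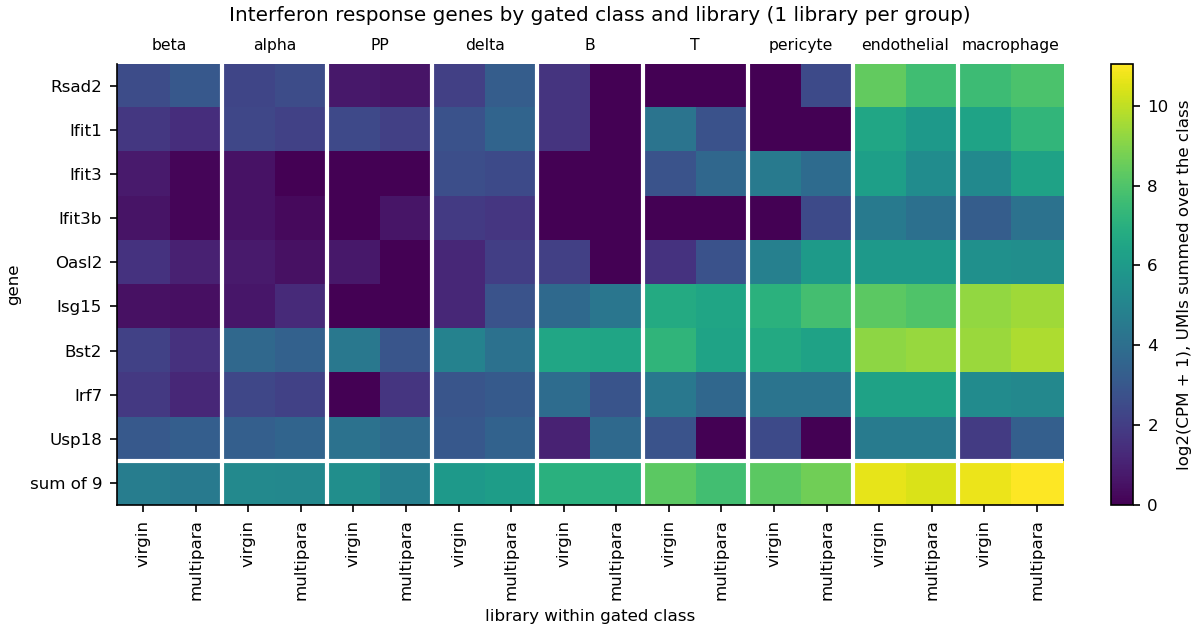
Colour shows log2(CPM + 1) of the summed UMIs of each of the 9 genes, and of their sum in the bottom row, for the 9 gated classes with 30 or more cells in both libraries, with virgin and multipara side by side. Endothelial cells and macrophages hold the highest sums, 1384 to 2121 CPM, and β cells the lowest, 22.6 and 24.5 CPM.

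The gap remained at equal depth, with hormone UMIs still counted. When every cell was thinned to 2000 UMIs, a UMI of at least 1 of the 9 genes remained in 5.06% of virgin and 5.01% of multipara β cells, in 7.36% and 6.39% of α cells, in 81.0% and 86.9% of endothelial cells and in 86% and 90% of macrophages. Unthinned, the β cell shares were 39.8% and 40.2%. The 8 endothelial gate markers reached the β cell gate at 0.0370% and 0.0306% of their endothelial level, which measures free RNA and mixed droplets. Isg15 came closest to that share, at 0.130% and 0.137% of its endothelial level, Bst2 was at 0.588% and 0.309%, and Usp18 was at 32.1% and 38.3%. All 9 genes were above the endothelial marker share in both libraries. Because the gate lowers that share, it cannot tell how much free RNA or mixed droplets gave. The source of the members' UMIs in β cells was not tested.

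Endothelial cells and macrophages differed in which genes made up the sum. Bst2 was high in both, with 584 and 646 CPM in virgin and multipara endothelial cells and 679 and 832 CPM in macrophages. Isg15 stood at 310 and 256 CPM in endothelial cells and at 620 and 707 CPM in macrophages. The macrophage values of Isg15 lay above the endothelial ones in both libraries.

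Rsad2 stood at 340 CPM in virgin and 199 CPM in multipara endothelial cells, and at 190 and 240 CPM in macrophages. Its CPM was thus higher in endothelial cells in virgin, and in multipara the intervals of the cell types overlapped. Irf7, the amplifying factor, stood at 82.5 and 80.4 CPM in endothelial cells and at 39.6 and 35.2 CPM in macrophages. Usp18 stood at 23.3 and 22.97 CPM in endothelial cells, and in macrophages it had only 1 and 6 UMIs, or 2.83 and 9.18 CPM. Usp18 was the one member whose β cell level, 7.47 and 8.80 CPM, was within the range of the macrophage values.

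The makeup in β cells differed from that in endothelial cells and macrophages. Usp18 and Rsad2 together gave 50.4% of the member UMIs of virgin β cells and 70.6% of those of multipara β cells. They gave 36.3% and 45.7% in α cells, 17.0% and 26.7% in δ cells, 22.9% and 16.0% in endothelial cells and 11.3% and 11.8% in macrophages. Isg15 and Bst2 together gave 15.7% and 10.4% in β cells, against 56.3% and 65.2% in endothelial cells and 76.1% and 72.6% in macrophages. In β cells Isg15 had 20 and 16 UMIs in all, or 0.402 and 0.351 CPM, and Ifit3 had 38 and 5 UMIs, or 0.764 and 0.110 CPM. Usp18 was found in 18.04% and 20.7% of β cells and Rsad2 in 9.92% and 13.5%, while Ifit3 was found in 13 and 5 cells.

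Among 11491 genes with at least 200 UMIs, the 5 whose log2(CPM + 1) profile over 18 points (9 classes in 2 libraries) had the highest Pearson correlation with that of the summed members were Il10rb at 0.98, Cyfip1 and Sat1 at 0.967, Atox1 at 0.964 and Sh3glb1 at 0.961. Il10rb encodes a receptor subunit shared by interleukin 10 and type III interferons. Of the members themselves, Bst2 was at 0.971 and Isg15 at 0.966, and Usp18 was at -0.10. The points share libraries and depth, and each member is itself part of the sum, so these values only describe the pattern.

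Transcripts of the interferons themselves were found mainly in macrophages. Of 10 interferon genes that were counted, 4 had a UMI, and Ifnb1, which encodes interferon β, led. It had 62 UMIs in 13 of 65 virgin macrophages (20%, 11.1 to 31.8) and 269 UMIs in 32 of 95 multipara macrophages (33.7%, 24.3 to 44.1), with up to 10 and 44 UMIs in a cell. Thinned to 2000 UMIs, the shares were 22.0% (11 of 50) and 25.6% (23 of 90). The β cell gate held 2 and 1 Ifnb1 UMIs. Of the 30 Ifnb1 UMIs in virgin endothelial cells 29 lay in 1 droplet, which also held 478 UMIs of the antigen-presentation gene Cd74 and 73 of the macrophage gene C1qb. Virgin mixed cells, which met a hormone gate but held 3 or more markers of another class, had 26 Ifnb1 UMIs, 25 of them in 1 cell. Ifng, which encodes interferon γ, was found in 10 of 129 virgin and 3 of 40 multipara T cells. It also had 4 UMIs in 2 of 2 multipara natural killer cells, a class too small to compare.

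The macrophages that held Ifnb1 also held more of the 9 genes. This split was chosen after the values were seen. In virgin, 3 or more members were found in 11 of the 13 macrophages with Ifnb1 and in 15 of the 52 without (84.6% and 28.8%), at median depths of 5835 and 5906 UMIs. In multipara the counts were 27 of 32 and 13 of 63 (84.4% and 20.6%), at 7932 and 6766 UMIs. Isg15 stood at 1596 CPM with and 344 CPM without Ifnb1 in virgin, and at 1581 and 166 CPM in multipara. Rsad2 stood at 695 and 47.1 CPM in virgin, and at 520 and 66.9 CPM in multipara. These genes and Ifit1 had intervals that did not overlap in either library.

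Bst2 and Irf7 did not follow them. Bst2 stood at 914 CPM with and 613 CPM without Ifnb1 in virgin, but at 644 and 949 CPM in multipara. Irf7 stood at 12.9 CPM with and 47.1 CPM without Ifnb1 in virgin and at 24.01 and 42.1 CPM in multipara, on 1, 13, 6 and 17 UMIs, and its intervals overlapped in both libraries.

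**Figure D2:**
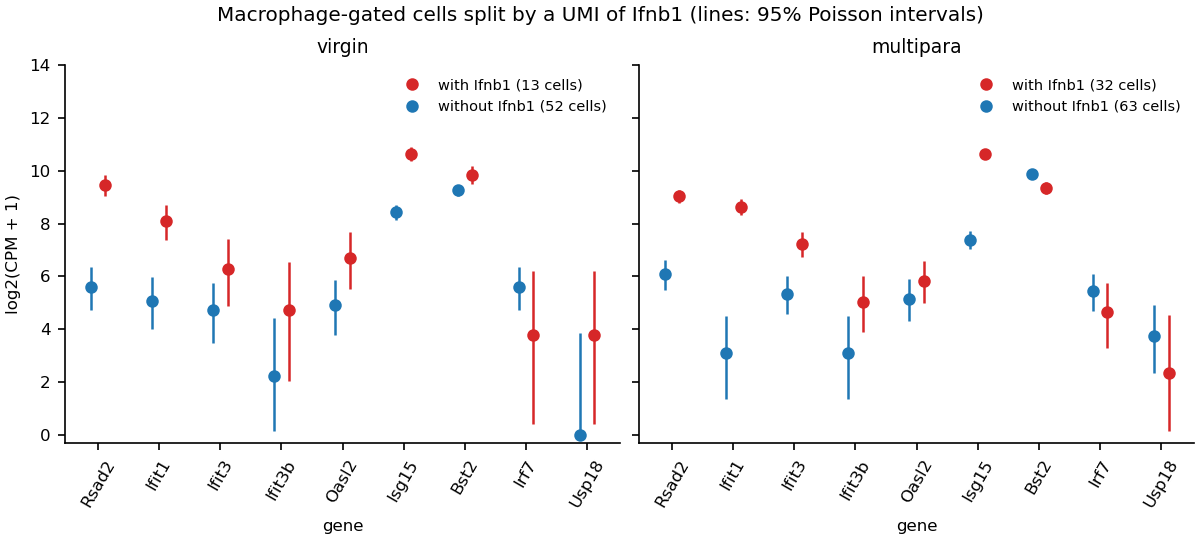
Points show log2(CPM + 1) of each of the 9 genes in macrophage-gated cells with (red) and without (blue) a UMI of Ifnb1, in virgin (left) and multipara (right), and lines are exact 95% Poisson intervals. Isg15, Rsad2 and Ifit1 lie higher in cells with Ifnb1 in both libraries, and Bst2 lies on opposite sides in the 2 libraries.

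Between the libraries, most of the 9 genes were lower in multipara β cells, and the 2 with most UMIs were not. A gene was called past a 1.5-fold difference in CPM among genes with 10 or more UMIs. Of the 9 members 5 were lower and 0 were higher, against 9.64% of 13852 genes lower and 4.32% higher. Under 7 of 12 alternatives, TMM scaling among them, Rsad2 passed the limit upward, at log2 ratios of 0.64 to 0.79. The median log2 ratio of multipara over virgin was -0.78 over the members and -0.09 over all genes tested.

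The antiviral effectors Ifit3 and Ifit3b showed the largest differences. Ifit3 had 38 UMIs in virgin and 5 in multipara, or -2.80 (-4.50 to -1.45) on the log2 scale. Ifit3b had 25 and 5 UMIs, or -2.19 (-3.94 to -0.78) on the log2 scale. These differences lie in a few cells: 2 virgin cells held 41 of the 63 Ifit3 and Ifit3b UMIs, and without these 2 cells, an alternative chosen after seeing the data, the log2 ratio was -1.36 (-3.19 to 0.20) for Ifit3 and -0.55 for Ifit3b, and 4 members rather than 5 were called lower. Oasl2 had 102 and 47 UMIs, or -0.99 (-1.52 to -0.48) on the log2 scale. It was -0.78 without those 2 cells.

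Irf7 had 127 and 61 UMIs, or -0.93 (-1.40 to -0.48) on the log2 scale, and Bst2 had 171 and 91 UMIs, or -0.78 (-1.17 to -0.41) on the log2 scale. Both stayed negative when all cells with 3 or more members were left out, at -0.77 and -0.44. When each cell was weighted equally rather than by its UMIs, however, the Bst2 ratio was 0.42. Ifit1 had 122 and 78 UMIs, or -0.52 (-0.95 to -0.10) on the log2 scale. It was at 0.31 with each cell weighted equally and at -0.30 without the top 2 virgin cells. Isg15 had 20 and 16 UMIs, or -0.19 (-1.24 to 0.83) on the log2 scale, a wide interval that includes 0.

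Usp18 and Rsad2 pointed the other way. Usp18 had 372 and 401 UMIs, or 0.24 (0.03 to 0.44) on the log2 scale, and Rsad2 had 243 and 326 UMIs, or 0.55 (0.31 to 0.80) on the log2 scale, both under the 1.5-fold limit. Because of them the sum of the 9 genes was almost level, with 1220 and 1030 UMIs, or -0.12 (-0.24 to 0.00) on the log2 scale. Without Usp18 and Rsad2 the other 7 genes summed to 605 and 303 UMIs, or -0.87 (-1.07 to -0.67) on the log2 scale. That grouping was made after the ratios were seen.

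**Figure D3:**
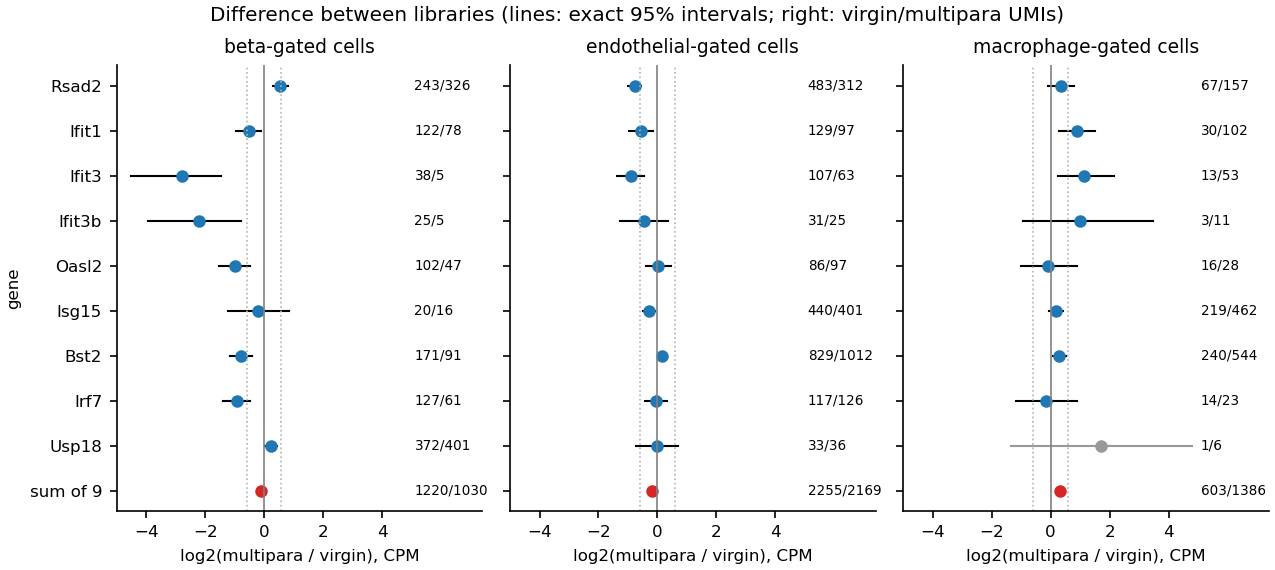
Points show the log2 ratio of multipara over virgin CPM for each of the 9 genes and for their sum (red) in β cells, endothelial cells and macrophages, lines are exact 95% intervals, dotted lines mark 1.5-fold, numbers are UMIs in virgin and multipara, and the grey point has under 10 UMIs. Ifit3 is lower in multipara in β cells (-2.80) and endothelial cells (-0.91) and higher in macrophages (1.14).

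In α cells 7 members had enough UMIs, of which 1 was lower (background 8.25%) and 1 was higher (4.22%). Oasl2 had 11 and 4 UMIs, and Isg15 had 9 and 15 UMIs, or 1.37 (0.09 to 2.75) on the log2 scale. Ifit3 had 7 and 0 UMIs in α cells, and 6 of the 7 lay in 1 virgin cell. That cell held 8 of the 9 members in 46 UMIs with 35.6% of its UMIs from glucagon.

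In endothelial cells all 9 were tested, 2 were lower in multipara (background 10.6%) and 0 were higher (7.65%). Ifit3 had 107 and 63 UMIs, or -0.91 (-1.38 to -0.45) on the log2 scale, and Rsad2 had 483 and 312 UMIs, or -0.77 (-0.98 to -0.57) on the log2 scale. Without the droplet rich in Cd74, an alternative added after seeing the data, these were -0.90 and -0.71. Other virgin cells were kept there, of which 1 held 59 and another 23 of the 483 Rsad2 UMIs. No multipara cell held more than 12. The share of cells with an Rsad2 UMI was 45.2% in virgin and 50.7% in multipara. Bst2 had 829 and 1012 UMIs, or 0.14 (0.01 to 0.28) on the log2 scale, and Irf7, Oasl2 and Usp18 had intervals that include 0.

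In macrophages 8 members were tested, 0 were lower (background 24.4%) and 3 were higher (11.5%). Ifit1 had 30 and 102 UMIs, or 0.88 (0.28 to 1.52) on the log2 scale, Ifit3 had 13 and 53 UMIs, or 1.14 (0.25 to 2.14) on the log2 scale, and Ifit3b had 3 and 11 UMIs. Of the 53 multipara Ifit3 UMIs, 13 lay in 1 cell and 12 in another. The share of macrophages with an Ifit3 UMI was close, at 16.9% in virgin and 15.8% in multipara. Ifit1 was also higher in the macrophages with Ifnb1, whose share was 20% in virgin and 33.7% in multipara, or 22.0% and 25.6% at equal depth. Whether the share of such cells accounts for the difference was not tested.

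The other genes of the pathway were counted from fixed lists, to be read against the same 9.64% lower and 4.32% higher over all genes in β cells. In β cells the receptors were level, with 0 of 6 past 1.5-fold in either direction and a median log2 ratio of -0.08. Ifnar1, a subunit of the type I receptor, had 318 and 234 UMIs, a log2 ratio of -0.31. Of 8 JAK-STAT genes 1 was lower, the feedback inhibitor Socs1 at -0.82. Of 12 tested nucleic acid sensors and adaptors 3 were lower, among them Ifih1, a sensor of long double-stranded RNA, with 125 and 62 UMIs, or -0.88 (-1.35 to -0.43) on the log2 scale.

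Of 24 other type I interferon-induced genes tested in β cells 8 were lower and 1 was higher, at a median log2 ratio of -0.35. Xaf1, a regulator of cell death, had 79 and 33 UMIs, a log2 ratio of -1.13, and Ddx60, a helicase, had 136 and 73 UMIs, a log2 ratio of -0.77. Rtp4 was the higher one, at 0.62. Of 9 interferon γ-induced genes 3 were lower and 1 was higher, the chemokine Cxcl10, with 68 and 151 UMIs, or 1.28 (0.86 to 1.71) on the log2 scale. Antigen presentation was close to level, with 1 of 11 MHC class I genes lower and B2m, the light chain, at 1167 and 1072 UMIs and a log2 ratio of 0.01. Markers of immune cells also moved in the β cell gate: 5 of 8 tested were higher in multipara, such as H2-Aa with 93 and 200 UMIs, and 2 were lower, such as Cd79a with 1624 and 505. Their part in the members' values was not tested. The immune marker Lyz2, which stood at 5313 and 4854 CPM in macrophages, was at 0.764 and 0.527 CPM in β cells. Other markers were higher: in β cells with fewer than 3 members, both libraries together, C1qa stood at 50.9 CPM and Cd79a at 22.4 CPM, against 0.643 CPM for Lyz2.

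Cxcl10 and its neighbour Cxcl9, chemokines that call T cells, also differed in other classes. In α cells Cxcl10 had 407 and 193 UMIs, at a log2 ratio of -0.44, and in δ cells 12 and 51 UMIs, at 2.31. In endothelial cells Cxcl10 had 212 and 50 UMIs, or -2.23 (-2.70 to -1.78) on the log2 scale, and Cxcl9 had 52 and 0 UMIs. In macrophages Cxcl9 had 86 and 6 UMIs, or -4.73 (-6.21 to -3.55) on the log2 scale. Interferon γ-induced genes were lower in multipara macrophages for 6 of 11 tested and higher for 0, while of 31 other type I interferon-induced genes 7 were higher and 4 lower. Over all macrophage genes 24.4% were lower and 11.5% higher.

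Single β cells with several of the genes were rare. A UMI of 3 or more members was found in 30 of 1713 virgin β cells (1.75%, 1.18 to 2.49) and in 24 of 1528 multipara β cells (1.57%, 1.01 to 2.33), against 47.5% and 59.1% of endothelial cells and 40.0% and 42.1% of macrophages. At an equal depth of 5500 UMIs the β cell shares were 0.318% (5 of 1571) and 0.0745% (1 of 1342). In 11 of the 30 and 10 of the 24 cells every member found had 1 UMI. Usp18 or Rsad2 was among the members in 25 of the 30 and in 23 of the 24, and Ifit3 or Ifit3b in 7 of the 30 and 3 of the 24. Since the cells were chosen by these genes, their member levels are a description.

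Most member UMIs lay in β cells with fewer than 3 members, 75.6% in virgin and 88.3% in multipara. Among the cells with 3 or more members, a few held many UMIs. The virgin cell with most held 76 UMIs from 8 members, with 17 of Ifit3, 14 of Rsad2, 10 of Ifit3b, 8 each of Bst2 and Usp18, 7 of Ifit1, 6 each of Oasl2 and Irf7 and 0 of Isg15. The next held 66 UMIs from all 9 members, with 12 of Rsad2, 10 of Ifit1, 8 each of Oasl2 and Bst2, 7 each of Ifit3 and Ifit3b, 6 of Usp18 and 4 each of Isg15 and Irf7. Both passed the β cell gate clearly, with 52.6% and 59.3% of UMIs from insulin, and their mitochondrial shares of 9.85% and 8.84% were near the filter limit of 10%. Together they held 142 UMIs, or 11.6% of all member UMIs of virgin β cells. Then followed virgin cells with 17, 14 and 14 member UMIs, and the multipara cell with most held 18, of which 9 were Rsad2 and 4 were Isg15. The top 2 multipara cells held 27 UMIs, or 2.62% of all member UMIs of multipara β cells. The 30 virgin cells held 78.9% of the Ifit3 UMIs and 88% of the Ifit3b UMIs of their class, but 9.41% of those of Usp18.

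**Figure D4:**
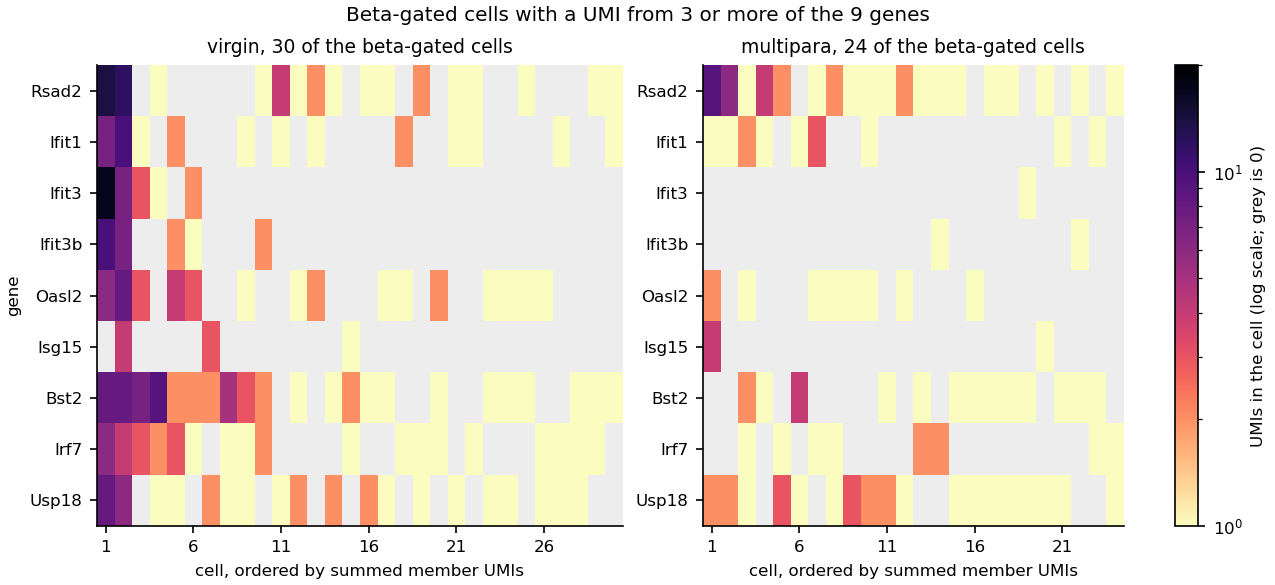
Each column is 1 β cell with a UMI of 3 or more of the 9 genes, ordered by its summed member UMIs, with virgin (30 cells) on the left and multipara (24 cells) on the right, and colour gives UMIs on a log scale with grey for 0. The virgin cells with 76 and 66 UMIs stand apart, and Ifit3 and Ifit3b are nearly empty outside them.

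The 6 β cells with 3 or more members and 10 or more member UMIs, 5 virgin and 1 multipara, were set beside the 3187 β cells with fewer than 3 members. The limit of 10 was chosen after the values were seen. It is set on raw UMIs and so depends on depth. A virgin cell with 9 member UMIs among 8675 (1037 CPM) was left out. The multipara cell with 18 among 51109 (352 CPM) was included. Of the 205 member UMIs of the 6 cells, 142 lay in the top 2 virgin cells. Some genes that had not chosen the 6 cells were also higher in these cells. Of 13796 genes with 10 or more UMIs in these cells together, 1.99% had a higher level in the 6 cells with intervals that did not overlap. The 36 other type I interferon-induced genes summed to 819 CPM against 164 CPM, and 13 of the 23 with 10 or more UMIs met that rule (14 of all 36). Xaf1 stood at 85.6 CPM (48.9 to 139) against 0.932 CPM (0.747 to 1.15), with a UMI in 6 of 6 cells. Rtp4, a chaperone of membrane receptors, stood at 64.2 CPM against 1.14 CPM. These values rest on 16 and 12 UMIs.

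Some signalling, sensing and presentation genes met the rule too. Stat2, a transcription factor of the type I pathway, stood at 26.8 CPM against 3.52 CPM, while the 6 receptors together stood at 32.1 against 23.2 CPM with 0 of 6 apart. Of 11 tested sensors 3 were higher, Ddx58 at 42.8 CPM against 3.42 CPM, Dhx58 at 26.8 CPM against 0.45 CPM and Ifih1 at 21.4 CPM against 1.95 CPM. Of 10 tested MHC class I genes 5 were higher. B2m stood at 214 CPM (153 to 291) against 21.9 CPM, and Psmb8, a subunit of the immunoproteasome, at 85.6 CPM against 12.2 CPM. Of 9 tested interferon γ-induced genes 5 were higher, with the GTPase gene Irgm1 at 48.2 CPM against 4.03 CPM. Interferon transcripts had 0 UMIs in these 6 cells.

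Their β cell genes were close to those of the rest. Of 9 β cell identity genes 0 were higher, and Ins1 and Ins2 were slightly lower, at 145496 against 163294 CPM and at 408684 against 417421 CPM. Of 8 immune cell markers tested 0 were higher. The sum of all 12 was 48.2 CPM against 85.5 CPM, and C1qa and Cd79a gave most of the latter, at 50.9 and 22.4 CPM. In the 6 cells C1qa stood at 32.1 CPM and Cd79a had 0 UMIs. A marker with 0 UMIs in the 6 cells could stand at up to 19.7 CPM. The β cell gate had already left out cells with 3 or more markers of a non-endocrine class, so these counts cannot show whether the 6 droplets were free of immune RNA.

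**Figure D5:**
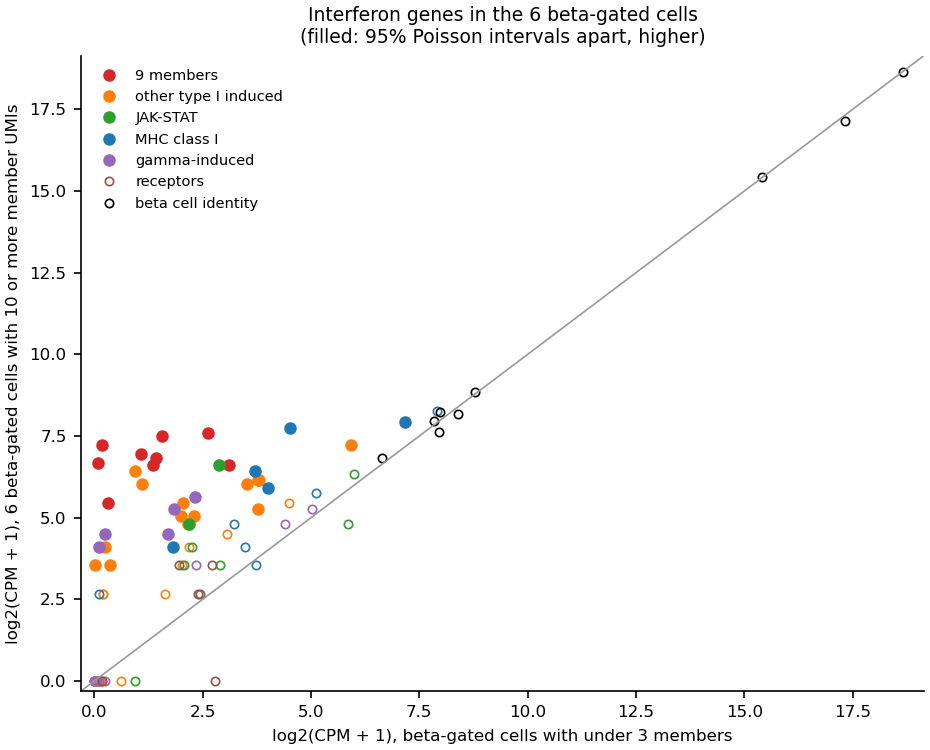
Each point is 1 gene, with log2(CPM + 1) in the 3187 β cells with fewer than 3 members on the x axis and in the 6 β cells with 3 or more members and 10 or more member UMIs on the y axis, coloured by gene list, and filled points have non-overlapping 95% Poisson intervals and a higher level in the 6 cells. Members, 14 other type I interferon-induced genes, Stat2 and B2m lie above the diagonal, and the β cell identity genes lie along it.

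Over all 54 cells with 3 or more members, the 10 leading genes by fold of summed CPM with 20 CPM added were Igkc (58.5-fold), Jchain (12.9-fold), Cd74, Mzb1, B2m, Bst2, Rsad2, Ighm, H2-Q7 and Oasl2. The immunoglobulin genes Igkc and Ighm and the plasma cell genes Jchain and Mzb1 do not belong to the interferon programme. Of the 12695 Igkc UMIs in the virgin cells 12665 lay in 2 cells, which held 7 and 4 member UMIs and 36.2% and 35.2% insulin, and the 6 cells above held 2 Igkc UMIs. Without the 3 virgin β cells with 100 or more Igkc UMIs, these 2 among them, an alternative added after seeing the data, the virgin share of cells with 3 or more members was 1.64% and the log2 ratio of the summed members was -0.10.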

How the data were processed

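Each library came as 1 table of raw UMI counts per gene and barcode, deposited by the authors; the submitters' processing notes name Cell Ranger 3.1.0, Seurat 3.0 and GRCm38 (mm10). Strand use and the Cell Ranger annotation release are not given in the sources used here. The filter the study states was applied (over 200 and under 6000 genes, under 60000 UMIs, under 10% mitochondrial UMIs), and Scrublet (scanpy 1.11.5) removed 61 virgin and 44 multipara doublets (1.39% and 1.30%).

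The β cell gate needed 10% insulin UMIs with each other hormone under 2%. The α, δ and PP cell gates needed 2% of their hormone with insulin under 5% and each other hormone under 2%. Other classes needed 3 or more of their markers, more than for any other class, with insulin under 10% and each other hormone under 5%. Cells that met an endocrine gate and held 3 or more markers of a non-endocrine class were called mixed (25 virgin and 42 multipara) and entered no class. Cells that met the limits of 2 or more hormones (525 and 421) were left out too. Classes with fewer than 30 cells in either library were not compared.

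UMIs were summed per class, and CPM were taken over all genes. Intervals are Poisson for levels, Clopper-Pearson for shares and conditional binomial for ratios, at 95%. UMIs were counted at the 3′ end, so no length correction was made and levels are compared within a gene. Cells were thinned to 2000 or 5500 UMIs, leaving out shallower cells. Python 3.11.15, numpy 2.4.6, pandas 2.3.3, scipy 1.17.1 and matplotlib 3.10.9 were used, with edgeR 4.0.16 in R 4.3.3 for TMM scaling as an alternative. The scripts were tested on simulated data. Gene positions are from GENCODE M21, which holds 30934 of the 31053 gene identifiers, and promoters from RefSeq on GRCm38.p6, which matched 8 of the 9 members.

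The members and lists were chosen with earlier results of these data known. Genes were named by rule: the members, the highest and lowest genes of each list, the 10 leading genes of β cells with 3 or more members among genes with 5 or more UMIs in 3 or more of them, and the 5 genes with the most similar profile. Other genes named were chosen after their values were seen. Further alternatives were the gate limits, the filter, the doublet step, the number of members and the scaling.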

Additional observations from a re-analysis of the deposited data

Results flagged for a closer look

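Ifit3 differed between the libraries in opposite directions in 3 classes. Its log2 ratio of multipara over virgin was -2.80 in β cells (38 and 5 UMIs), -0.91 in endothelial cells (107 and 63 UMIs) and 1.14 in macrophages (13 and 53 UMIs). Without 2 virgin cells the β cell value was -1.36 (-3.19 to 0.20). In macrophages 13 of the 53 multipara UMIs lay in 1 cell and 12 in another. The share of macrophages with an Ifit3 UMI was 16.9% in virgin and 15.8% in multipara. The difference between the classes was not tested, and with 1 library per group each ratio is a difference between libraries.

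Signal of the members also lay outside the classes. Of the mixed cells, which met a hormone gate but held 3 or more markers of another class, 6 of 25 virgin and 3 of 42 multipara held 3 or more members. A virgin mixed cell with 42.4% insulin held 78 member UMIs, 58 of them Bst2. Another with 50.1% insulin held 30 UMIs from 8 members. Of cells past the limits of 2 or more hormones, 19 of 525 virgin and 12 of 421 multipara held 3 or more members. In 36 multipara cells of no class with at least 10% haemoglobin UMIs, Isg15 stood at 973 CPM (215 UMIs) and Rsad2 at 575 CPM (127 UMIs), while Bst2 had 3 UMIs and Ifit1 had 1. The virgin library had 0 such cells. Among the barcodes left out by the filter or as doublets, 3 or more members were found in 23 of 1133 in virgin (2.03%) and in 21 of 1745 in multipara (1.203%).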

How the results depend on the processing

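The results were recomputed under 50 listed alternatives and 8 added after seeing the data. Of the 199 log2 ratios among the 237 resulting values 27 changed sign, 21 of them where the reported interval includes 0. The other 6 were Bst2 at 0.42 and Ifit1 at 0.31 in β cells with each cell weighted equally, Usp18 in β cells at -0.09 and the T cell sum at 0.54 after thinning to 5500 UMIs, and, without the cells with 3 or more members, Ifit3b in β cells at 0.13 on 3 and 3 UMIs and the endothelial sum at 0.12. The share of β cells with 3 or more members was 0.318% in virgin and 0.0745% in multipara after thinning to 5500 UMIs, 10.2% and 9.29% with 2 or more members, and 0.584% and 0.327% with 4 or more, where the alternative sets the limit itself. The log2 ratio of the summed members in β cells was 0.041 with each cell weighted equally, 0.11 without the cells with 3 or more members and 0.0602 without the top 2 virgin cells. The number of members lower by the fold limit was 7 with no cell filter and with doublets kept, 3 without the cells with 3 or more members and 2 at a limit of 2-fold. The share of all β cell genes called lower was 6.14% at 30 or more UMIs and 4.60% at 2-fold, and that called higher was 2.72% and 2.08%. TMM scaling moved the β cell ratios by 0.09, which took Rsad2 past 1.5-fold. No paired analysis was possible because each group has 1 library and no test was made. Depth limits the rare genes: Ifit3, Ifit3b and Isg15 had 5 to 38 UMIs per library in β cells.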
